A study of Mus musculus with 4 samples.

Results

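The 35 genes described here encode the lysosome's proton pump, a set of its soluble enzymes and their protein cofactors, a few of its membrane proteins, and the transcription factors that switch this gene programme on. They were chosen by symbol from a list of V-ATPase subunits, lysosomal hydrolases, lysosomal membrane proteins and MiT/TFE factors, and all 35 were found among the 55487 genes of the deposited table, each on 1 row. All 35 passed the filter on low values and were tested. The table comes from bulk RNA sequencing of adipocytes that had been isolated from the perigonadal white fat of male mice kept on a standard diet. It holds 2 CKO libraries and 2 libraries of control littermates, whose genotype label reads WT. BLIMP1, a transcriptional repressor whose gene is Prdm1, and macrophages stand in the series title, but no label spells out CKO. The sources used here give neither a Cre driver, nor the targeted part of a gene, nor the age of the mice. Nor do the labels say whether the libraries came from separate mice, so every p-value measures only how far these libraries spread.

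A lysosome is an acidic compartment in which macromolecules are broken down. Its acidity is made by the V-ATPase, a rotary machine in which the cytosolic V1 sector hydrolyses ATP and the membrane V0 sector carries protons into the lumen. The low pH activates soluble hydrolases, each of which removes 1 kind of bond from glycans, lipids or proteins. TFEB, TFE3 and MITF are related basic helix-loop-helix factors that bind an E-box in the promoters of many of these genes, in a setting known as the CLEAR element. In fat, macrophages that take up lipid from adipocytes are known for a large lysosomal compartment, and adipocytes have lysosomes of their own.

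The binding motif was looked for in the RefSeq promoter windows of GRCm38.p6, which run from 250 bases before to 50 bases after a gene's start, because it links these genes to the MiT/TFE factors among them. A window was given for 30 of the 35 genes. The motif TCACGTG, on either strand, was in the windows of 10 of these 30 (33.3%), against 4.29% of the 27025 genes in the promoter table. Its longer form TCACGTGA was in 5 of 30 (16.7%), against 1.12%. Each match also contains the core CACGTG, which was in 10 of 30 (33.3%) against 8.09%. TCACGTG was also found in the lists described below. It was in 57.1% of 7 windows of enzyme sorting genes, 35.3% of 17 for TFEB control and 30% of 10 for cathepsins. Shares were lower for further V-ATPase genes (18.2% of 11), hydrolases (17.6% of 17), membrane proteins (10.5% of 19) and autophagy genes (7.69% of 13). Matches are in capitals, with 10 bases on each side of the extended site, in the direction of the gene. They were chosen to show the full form first and then the form with 1 end only.
Gla, chrX:134601216-134601243, minus strand: aagcgattgaTCACGTGAgcatctacgt
Gla, chrX:134601183-134601210, minus strand: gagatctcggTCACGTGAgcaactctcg
Atp6v1a, chr16:44139374-44139401, minus strand: tttttttaaaTCACGTGAtaggcttaac
Atp6v0d1, chr8:105566051-105566078, minus strand: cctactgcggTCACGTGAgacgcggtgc
Atp6v0e, chr17:26676388-26676415, plus strand: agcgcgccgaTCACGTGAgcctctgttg
Mcoln1, chr8:3500463-3500490, plus strand: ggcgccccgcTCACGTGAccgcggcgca
Atp6v0b, chr4:117887349-117887376, minus strand: tgcgcgggggTCACGTGgggtcggcgca
Lamp1, chr8:13159089-13159116, plus strand: gggcaagataTCACGTGgtccagcgccc
Glb1, chr9:114401019-114401046, plus strand: tgcttctgagTCACGTGgcctacagagg
Naglu, chr11:101070010-101070037, plus strand: aaccttcaggTCACGTGgcccgaggtcg
Gaa, chr11:119267812-119267839, plus strand: ttctgtgcgaTCACGTGtttgactctga

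Several windows held more than 1 match. Gla, the lysosomal alpha-galactosidase, had 2 full forms, whose cores begin at positions -227 and -194 from the RefSeq start. Lamp1 had 4 matches, with cores at -61, -45, -28 and -15, and Atp6v0b and Mcoln1 had 2 each. The MiT/TFE genes themselves and the accessory pump genes had none. Nor did the 5 genes with a window among the lipid and peptide hydrolases and their cofactors. Atp6v1b2, Atp6v1c1, Atp6v1g1, Atp6v1h and Asah1 were not searched. A match is a description of the sequence and not a measured binding site.

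The libraries held 24152081 to 26742547 reads. For Prdm1 itself, 152 and 386 unscaled reads were counted in CKO and 514 and 1135 in WT. The libraries stood in the same order as for the macrophage marker sums below. Why Prdm1 was lower in CKO was not tested. Adipocyte markers were present in every library, but so were macrophage markers, and both varied widely. Counts below are reads divided by a library's size factor, called scaled reads. Summed over 12 macrophage markers they were 42600 and 89504 in CKO replicates 1 and 2 and 182359 and 539370 in WT replicates 1 and 2. Summed over 12 adipocyte markers they were 1316986 and 828694 in CKO and 735305 and 222256 in WT. WT replicate 2 therefore had the most macrophage and the fewest adipocyte reads. Both CKO libraries lay below both WT libraries for 11 of the 12 macrophage markers, against 26.8% of all genes tested. None of the 12 was at 0 in any library. For the adipocyte markers the groups were less apart. In 4 of 12 each CKO library exceeded each WT library, against 23.9% of all genes tested. In 1, Lep, each lay lower, against 26.8%. As a median distance from each gene's mean, CKO replicate 2 (0.21) lay below WT replicate 1 (0.40). Markers of other cell types also differed between libraries, but not all in the same order. All 5 red blood cell markers were above both WT libraries in both CKO libraries, each at an unadjusted p under 0.05, with a median change of 2.17 and sums of 18879 and 30207 in CKO and 9082 and 3256 in WT. All 6 endothelial markers were likewise above, 1 of them at that level, with a median of 1.22 and sums of 50323 and 75322 in CKO and 41206 and 14946 in WT. Of 6 fibroblast markers, 3 had both CKO libraries below both WT libraries (median -0.56). Of 5 mesothelial markers, 2 were lower and 3 higher in sign (median 0.16). All 3 T and B cell markers tested were higher in sign (median 0.89). Of 4 neutrophil and mast cell markers tested, 1 was lower and 3 higher in sign (median 0.84). At an unadjusted p under 0.05 in limma, 1 of these 4 was lower and 1 higher (7.26% and 3.35% of all genes tested). In a bulk sample, fewer cells of a type and less RNA per cell cannot be told apart.

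Nearly every lysosomal gene had fewer reads in the CKO libraries than in the WT libraries, and no single gene passed the test. Of the 35 genes, 34 had a negative log2 change (48.9% of the 16871 genes tested did). Both CKO libraries lay below both WT libraries for 33 of 35, against 26.8% of all genes tested, and above them for 0, against 23.9%. The median log2 change, CKO minus WT on log2(scaled reads + 1), was -1.22 over the 35 genes and 0.015 over all genes tested. In limma with Benjamini-Hochberg adjustment over all genes tested, 0 of 35 were lower and 0 were higher at an adjusted p under 0.05, as for all genes (0 percent in each direction). The adjusted p was 0.459 for 25 of the 35 genes and reached 0.842. At an unadjusted p under 0.05, 16 of 35 were lower, against 7.26% of all genes tested, and 0 were higher, against 3.35%. With 2 libraries against 2, an exact permutation test cannot go below a two-sided p of 0.333, so none is given.

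**Figure D1:**
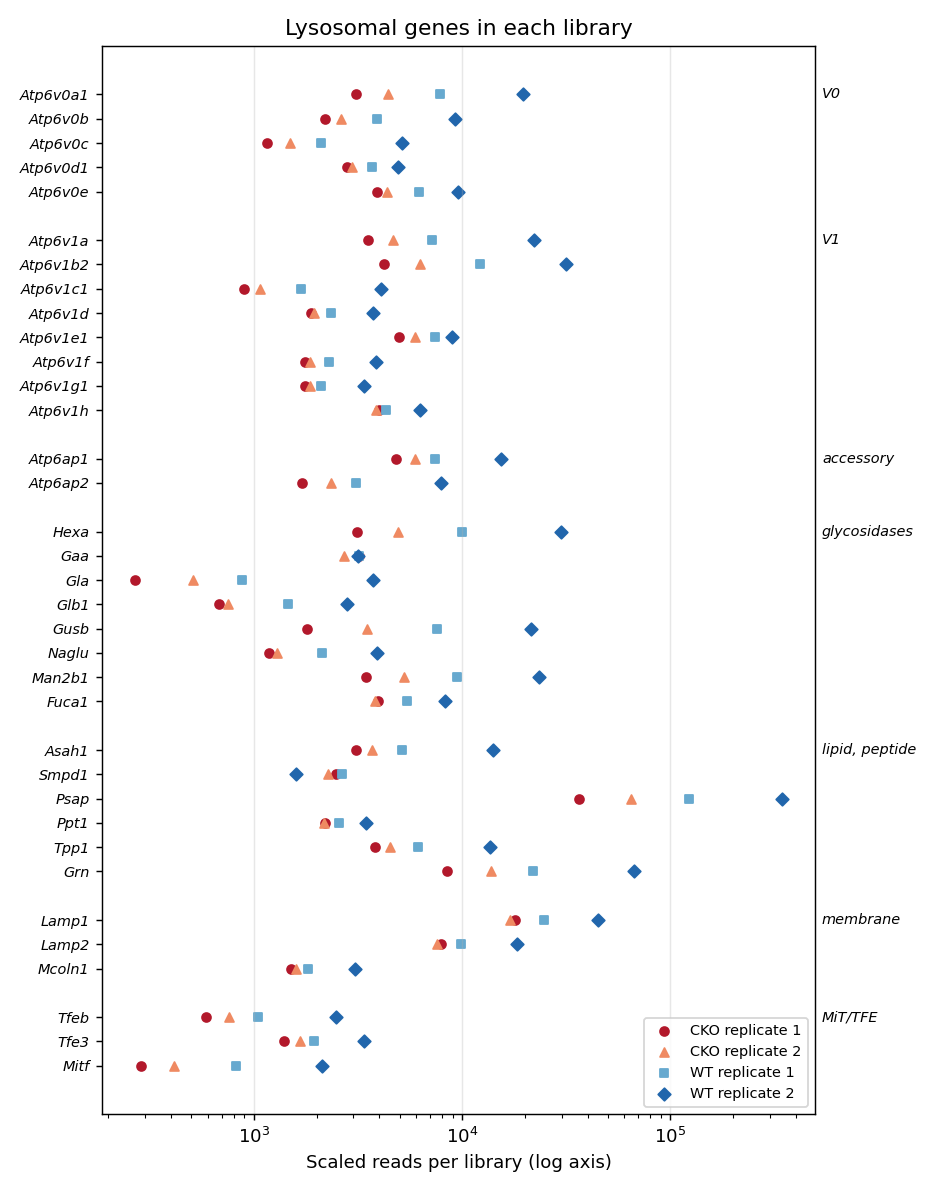
Scaled reads of the 35 genes in each of the 4 libraries, on a log axis, grouped by role. In 33 of 35 genes both CKO libraries (red and orange) lie to the left of both WT libraries (blue), and in 33 of 35 WT replicate 2 (dark blue) is the highest. Gaa and Smpd1 are the exceptions to both.

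The size of these differences followed 1 library in particular. WT replicate 2 was the highest of the 4 libraries for 33 of 35 genes (40.0% of all genes tested). For 28 of 35 the libraries stood in the same order as for the macrophage marker gene Adgre1, the gene of F4/80, with CKO replicate 1 lowest, then CKO replicate 2, WT replicate 1 and WT replicate 2 (17.0% of all genes tested). As a median over the 35 genes of the distance from each gene's own mean on the log2 scale, the libraries were at -0.69 and -0.45 for CKO replicates 1 and 2 and at 0.063 and 1.14 for WT replicates 1 and 2. The same distances of the macrophage markers were -1.44, -0.83, 0.27 and 1.98. The part of macrophage RNA, or of the other cell types whose markers moved, in the lysosomal differences was not tested.

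Between the nearest libraries of the groups, the distance was small. The lower WT library stood above the higher CKO library by a median of 0.46 on the log2 scale over the 35 genes, and by more than 0.5 for 14 of them. Without WT replicate 2 the median log2 change was -0.61, with 35 of 35 genes negative, and 12 were lower at an unadjusted p under 0.05 in limma (4.00% of all genes tested). Without WT replicate 1 the median was -1.72, 32 were lower at that level (17.0%), and 18 of 35 passed the adjusted threshold in limma, all lower (5.56% of all genes tested were called lower). Without CKO replicate 1 the unadjusted count was 0 (1.26%) and without CKO replicate 2 it was 8 (5.86%). In each of these fits the lone library of a group is assumed to vary like the others.

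**Figure D2:**
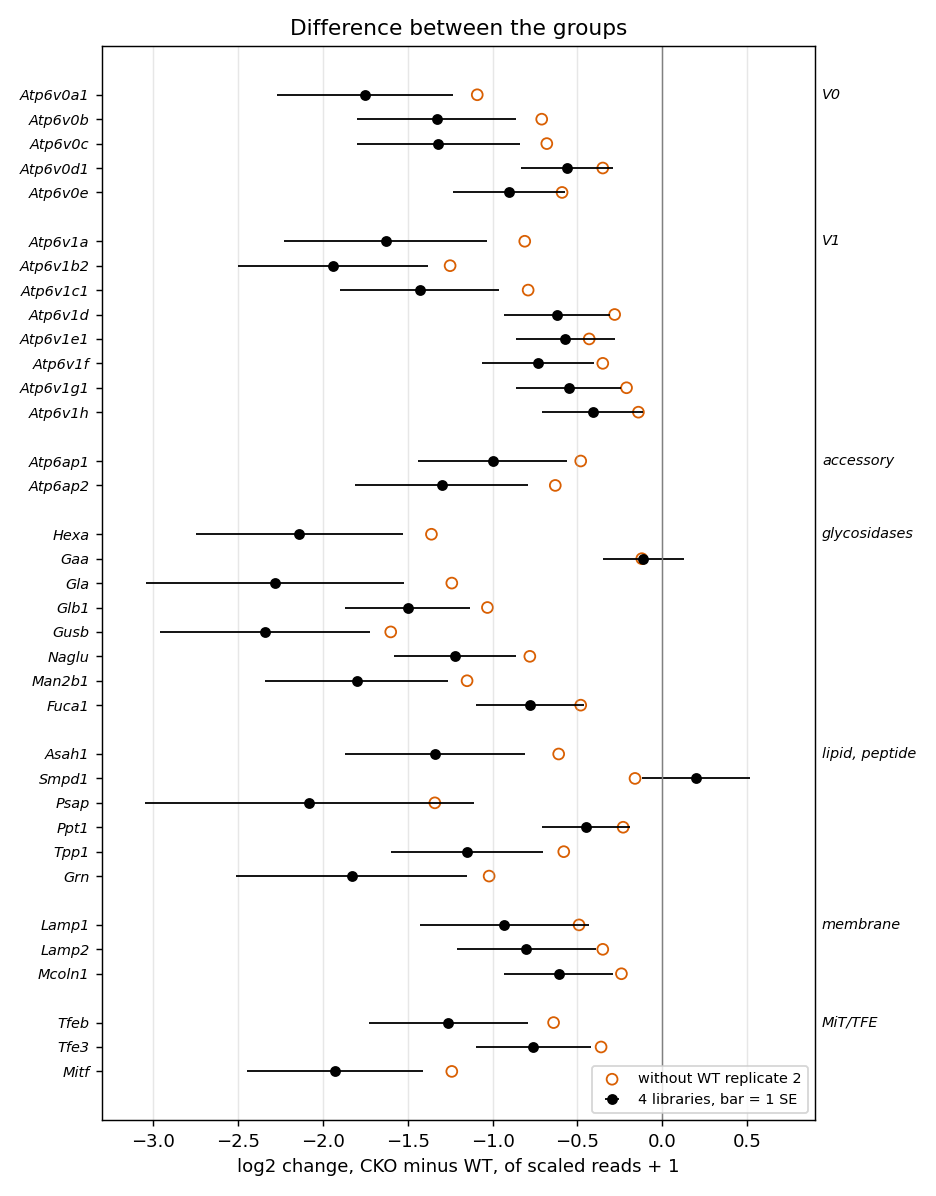
Log2 change of each gene, CKO minus WT, with 1 SE of the limma fit (black), and the same change when WT replicate 2 is left out (open orange circles). Without that library the changes move toward 0 for nearly all genes, and the median goes from -1.22 to -0.61.

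All 5 genes of the membrane sector V0 had fewer reads in both CKO libraries than in both WT libraries, against 26.8% of all genes tested. Their changes ran from -1.75 to -0.56 (median -1.32). Atp6v0a1 (chr11:101009452-101063719, plus strand, GRCm38) encodes an a subunit, which forms the path for protons. It had 3098 and 4389 scaled reads in CKO and 7848 and 19662 in WT. The groups did not overlap, and WT replicate 2 alone held more than the other 3 libraries together. Its log2 change was -1.75 (SE 0.52, limma adjusted p 0.459). The rotating proteolipid ring is built from the products of Atp6v0c and Atp6v0b. Atp6v0b had 2185 and 2608 scaled reads in CKO and 3894 and 9219 in WT, a log2 change of -1.33 (SE 0.47, limma adjusted p 0.459). Atp6v0c was at -1.32, but its reads may be shared with a processed copy, Atp6v0c-ps2, which had 817 and 1219 reads in CKO and 1508 and 3791 in WT. The small subunit gene Atp6v0e was at -0.90.

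Atp6v0d1, whose product joins the ring to the central stalk, had the smallest difference of the V0 genes among the 35. It had 2792 and 2960 scaled reads in CKO and 3677 and 4901 in WT. The CKO libraries were close to each other and below both WT libraries. The log2 change was -0.56 (SE 0.27, limma adjusted p 0.459), and it was -0.35 without WT replicate 2.

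The 8 genes of the cytosolic sector V1 split into 3 with large and 5 with small differences. Atp6v1b2 and Atp6v1a encode the B and A subunits that form the ATP-binding ring, and Atp6v1c1 encodes the C subunit that links the sectors. Atp6v1b2 (chr8:69088646-69113711, plus strand) had 4193 and 6249 scaled reads in CKO and 12188 and 31511 in WT. Each WT library held more than both CKO libraries together. Its log2 change was -1.94 (SE 0.56, limma adjusted p 0.459) and the mean scaled count was 5221 ± 1454 in CKO and 21850 ± 13663 in WT (SD, n = 2). Atp6v1c1 had 890.6 and 1066 scaled reads in CKO and 1684 and 4076 in WT, a log2 change of -1.43 (SE 0.47, limma adjusted p 0.459). Atp6v1a was at -1.63.

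The stalk genes Atp6v1d, Atp6v1e1, Atp6v1f and Atp6v1g1 were at -0.62, -0.57, -0.73 and -0.55. Atp6v1h, a regulatory subunit on the outside of V1, had the smallest difference of the pump genes among the 35. It had 3980 and 3837 scaled reads in CKO and 4307 and 6265 in WT. WT replicate 1 was barely above the CKO libraries. The log2 change was -0.41 (SE 0.30, limma adjusted p 0.553). All 8 V1 genes had both CKO libraries below both WT libraries, against 26.8% of all genes tested. At an unadjusted p under 0.05 in limma, 3 of 8 were lower, against 7.26% of all genes tested.

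The accessory subunits showed the same direction. Atp6ap1, a glycoprotein needed to assemble the pump, had 4806 and 5927 scaled reads in CKO and 7438 and 15363 in WT, a log2 change of -1.0 (SE 0.44, limma adjusted p 0.459). Atp6ap2, also known as the prorenin receptor, had 1707 and 2351 in CKO and 3104 and 7893 in WT, a log2 change of -1.30 (SE 0.51, limma adjusted p 0.459). For both genes WT replicate 2 lay far above the other 3 libraries.

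Levels can be compared between pump genes only per length, and within a library such a ratio does not depend on the scaling. The pairs below were chosen after their values were seen, and lengths are the union of a gene's annotated exons. Atp6v1b2 over Atp6v1h, in reads per kb, was 1.94 and 2.99 in CKO replicates 1 and 2 and 5.2 and 9.24 in WT replicates 1 and 2. Atp6v1a over Atp6v1e1 was 0.48 and 0.532 in CKO and 0.657 and 1.67 in WT. Both pairs set a V1 gene with a large difference over a V1 gene with a small difference, so ratios that differ between libraries follow from the choice. They cannot show whether the proportions of the pump subunits as a set differed. Atp6v1b2 over Atp6v1a, the 2 partners of the ATP-binding ring, was more even, at 1.35 and 1.53 in CKO and 1.95 and 1.63 in WT. Across the 13 V0 and V1 genes, the most abundant per kb was Atp6v1f in both CKO libraries (1646 and 1746 scaled reads per kb) and Atp6v1b2 in both WT libraries (2298 and 5940). The spread of the 13 genes around their mean on the log2 scale was nearly the same in each library.

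Some pump subunits have alternative genes, and the changes of these had both signs. Atp6v0d2, the d subunit gene known from osteoclasts and macrophages, had 215.4 and 1824 scaled reads in CKO and 6348 and 27336 in WT, a log2 change of -4.39 (SE 1.21, limma adjusted p 0.459). Per kb, Atp6v0d2 over Atp6v0d1 was 0.0509 and 0.407 in CKO and 1.14 and 3.68 in WT, so the alternative gene was the lesser one in both CKO libraries and the greater one in both WT libraries. The 95% counting intervals (exact binomial) of these ratios were 0.0441 to 0.0585, 0.385 to 0.43, 1.09 to 1.19 and 3.57 to 3.8, and cover counting error only.

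The a subunit genes behaved otherwise. Tcirg1, which encodes the a3 subunit of osteoclasts and macrophages, had a log2 change of -2.18 (SE 0.72), and its ratio to Atp6v0a1 per kb was 0.535 and 0.81 in CKO and 0.741 and 1.05 in WT, with CKO replicate 2 above WT replicate 1. Atp6v0a2, chosen after its values were seen, had groups that overlapped, at 2109 and 2322 scaled reads in CKO and 2237 and 2929 in WT, and its ratio to Atp6v0a1 was 0.663 and 0.516 in CKO and 0.278 and 0.145 in WT. Atp6v0e2, chosen in the same way, was of opposite sign, with 1927 and 1341 scaled reads in CKO and 1471 and 331.2 in WT, groups that overlapped. Its log2 change was 1.20 (SE 0.74, limma adjusted p 0.512), and it was 0.13 without WT replicate 2. Atp6v0e2 over Atp6v0e was 0.77 and 0.479 in CKO and 0.37 and 0.0543 in WT.

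Of 14 further V-ATPase genes, including alternative subunits and assembly factors, 9 could be tested, and 6 of these 9 were lower and 3 higher in sign. Of all genes tested, 48.9% were lower in sign. At an unadjusted p under 0.05 in limma, 2 of the 9 were lower and 0 higher, against 7.26% and 3.35% of all genes tested. Both CKO libraries lay below both WT libraries for 4 of the 9 and above them for 1, against 26.8% and 23.9%. The assembly factor genes Vma21 and Tmem199 had log2 changes of -0.69 and -0.45. Atp6v0a4, Atp6v1b1, Atp6v1e2 and Atp6v1g3, subunit genes known from kidney, testis and other tissues, had 0 reads in at least 1 library and at most 4 in any.

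**Figure D3:**
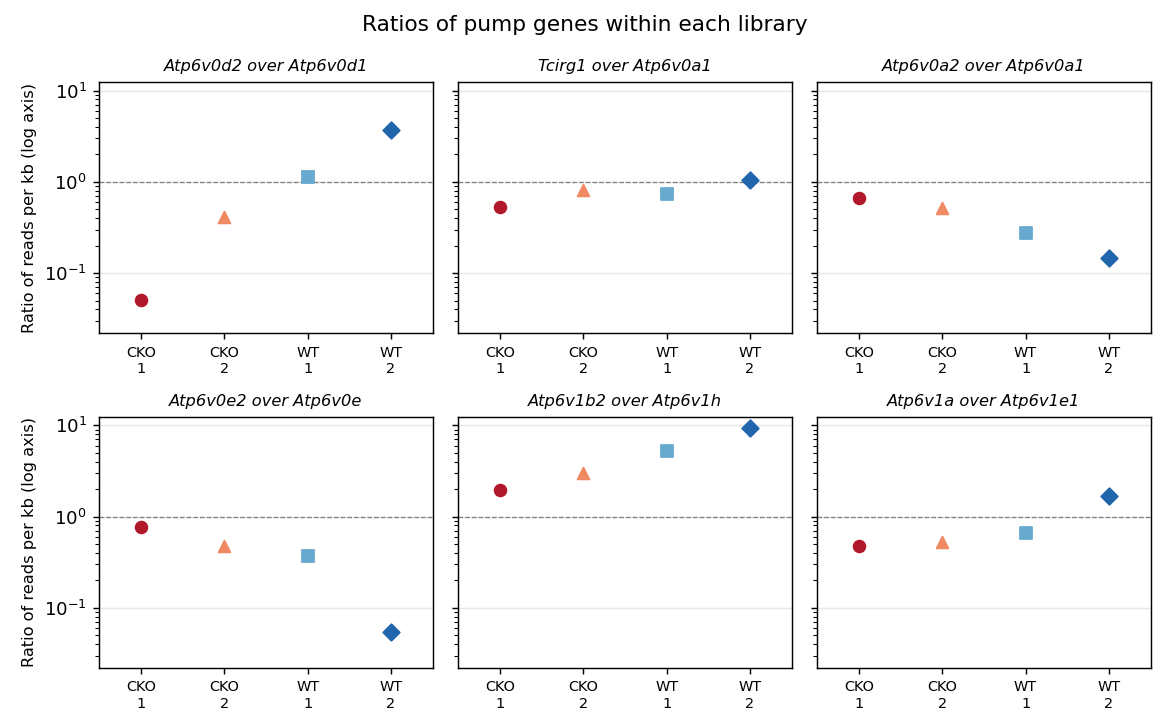
Ratios of reads per kb of exon between 2 pump genes within each library, on a log axis, with 95% exact binomial intervals that cover counting error only and are smaller than the symbols; the dashed line marks a ratio of 1. Atp6v0d2 over Atp6v0d1 runs from 0.0509 in CKO replicate 1 to 3.68 in WT replicate 2, while Atp6v0a2 over Atp6v0a1 runs from 0.663 down to 0.145.

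The glycosidases, which remove sugars from glycoproteins, glycolipids and glycosaminoglycans, had the largest differences of the role groups, with a median of -1.65. Both CKO libraries lay below both WT libraries for 7 of 8, against 26.8% of all genes tested. At an unadjusted p under 0.05 in limma, 6 of 8 were lower, against 7.26% of all genes tested. Glb1 (chr9:114401076-114474898, plus strand), the lysosomal beta-galactosidase, had 681.2 and 749.1 scaled reads in CKO and 1461 and 2806 in WT. The CKO libraries were close together, and each WT library was well above them. Its log2 change was -1.50 (SE 0.37, limma adjusted p 0.459), the smallest unadjusted p of the 35 genes (0.0103). Exons of Tmppe overlap Glb1 on the same strand, so some reads cannot be assigned between them.

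Gusb (chr5:129989011-130003049, minus strand), the beta-glucuronidase that cuts glycosaminoglycans, had 1804 and 3473 scaled reads in CKO and 7566 and 21273 in WT. The step from the higher CKO to the lower WT library, 1.12 on the log2 scale, was the widest among the 35 genes. The log2 change was -2.34 (SE 0.62, limma adjusted p 0.459) and remained -1.60 without WT replicate 2. Hexa, the alpha subunit of beta-hexosaminidase A, and Gla, described after their values were seen, came next. Hexa had 3109 and 4901 scaled reads in CKO and 10024 and 29677 in WT, a log2 change of -2.14. Gla had 267.5 and 510.0 in CKO and 875.3 and 3717 in WT, a log2 change of -2.28.

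Gaa (chr11:119267887-119285454, plus strand), which breaks down glycogen in the lysosome, stood apart from the other glycosidases. It had 3211 and 2701 scaled reads in CKO and 3198 and 3166 in WT. The groups overlapped and no library was far from the others. Its log2 change was -0.11 (SE 0.24, limma adjusted p 0.842), and its sign turned with the scaling and with a library left out: 0.022 on unscaled values, 0.008 after quantile normalisation and 0.013 without CKO replicate 2. Per kb, Gusb over Gaa was 0.591 and 1.35 in CKO and 2.49 and 7.07 in WT. The 3 remaining glycosidase genes were Man2b1 (alpha-mannosidase), Naglu (which acts on heparan sulphate) and Fuca1 (alpha-fucosidase), at -1.80, -1.22 and -0.78, all with groups that did not overlap.

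Of the 6 genes for lipid and peptide breakdown, 5 were lower in sign with groups that did not overlap, against 26.8% of all genes tested. Grn encodes progranulin, a secreted and lysosomal protein that is cut into granulins. It had 8410 and 13720 scaled reads in CKO and 21841 and 66536 in WT, a log2 change of -1.83 (SE 0.68, limma adjusted p 0.459). Tpp1, a tripeptidyl peptidase, had 3802 and 4482 in CKO and 6159 and 13576 in WT, a log2 change of -1.15 (SE 0.45, limma adjusted p 0.459). In both, WT replicate 1 was nearer to the CKO libraries than to WT replicate 2. Asah1, the acid ceramidase, and Ppt1, a thioesterase that removes palmitate from proteins, were at -1.34 and -0.45. Exons of Cap1, which had 945 to 2980 reads, overlap Ppt1 on the other strand, and whether the counting used strand was not stated. Genes with at most 563 reads overlap Hexa, Grn, Lamp1 and Atp6v1e1 in the same way.

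Psap (chr10:60277627-60302597, plus strand) encodes prosaposin, the precursor of saposins that present sphingolipids to the hydrolases, and it was the most abundant of the 35 genes per kb in every library. It is described after its values were seen. It had 36317 and 64486 scaled reads in CKO and 122217 and 344862 in WT, a log2 change of -2.08 (SE 0.97, limma adjusted p 0.459). Per kb, Psap over Grn, whose products bind each other, was 5.47 and 5.95 in CKO and 7.08 and 6.56 in WT, a narrower range than either gene's own.

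Smpd1 (chr7:105554360-105558389, plus strand), the acid sphingomyelinase, was the 1 gene of the 35 with a positive log2 change. It had 2470 and 2272 scaled reads in CKO and 2655 and 1595 in WT. WT replicate 1 was the highest library and WT replicate 2 the lowest, so the groups overlapped. The log2 change was 0.20 (SE 0.32, limma adjusted p 0.782) and turned to -0.16 without WT replicate 2. Asah1 over Smpd1, the next enzyme in the breakdown of sphingomyelin over the first, was 1.23 and 1.59 per kb in CKO and 1.91 and 8.71 in WT.

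The 3 lysosomal membrane genes had moderate differences, from -0.93 to -0.61. In all 3 both CKO libraries lay below both WT libraries, against 26.8% of all genes tested. At an unadjusted p under 0.05 in limma, 0 of 3 were lower, against 7.26% of all genes tested. Lamp1 and Lamp2 encode the abundant glycoproteins that line the lysosomal membrane. Lamp2 had 7924 and 7562 scaled reads in CKO and 9889 and 18367 in WT, a log2 change of -0.80 (SE 0.41, limma adjusted p 0.472). Lamp1, described after its values were seen, had 18001 and 16986 in CKO and 24632 and 44917 in WT, a log2 change of -0.93 (SE 0.50, limma adjusted p 0.478). In both genes CKO replicate 1 was slightly above CKO replicate 2, unlike most of the 35 genes. Lamp2 over Lamp1 per kb was nearly constant, at 0.123 and 0.125 in CKO and 0.112 and 0.115 in WT. Mcoln1, the calcium channel TRPML1, had 1502 and 1595 in CKO and 1826 and 3064 in WT, a log2 change of -0.61 (SE 0.32, limma adjusted p 0.476).

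All 3 transcription factor genes had fewer reads in both CKO libraries than in both WT libraries, against 26.8% of all genes tested. Mitf (chr6:97807052-98021349, plus strand) had 287.5 and 413.9 scaled reads in CKO and 818.2 and 2117 in WT, a log2 change of -1.93 (SE 0.52, limma adjusted p 0.459). Here too each WT library held more than both CKO libraries together. Tfeb (chr17:47737030-47792419, plus strand) had 590.0 and 754.5 in CKO and 1040 and 2472 in WT, a log2 change of -1.26 (SE 0.47, limma adjusted p 0.459). Tfe3 (chrX:7762560-7775202, plus strand) had 1387 and 1656 in CKO and 1947 and 3389 in WT, a log2 change of -0.76 (SE 0.34, limma adjusted p 0.459). The counts are per gene, and the several promoters and isoforms of Mitf cannot be separated.

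The proportions of the 3 factors also differed between libraries. Mitf over Tfe3 per kb was 0.31 and 0.374 in CKO and 0.628 and 0.934 in WT, with counting intervals that reached at most 13.6% from the ratio. Tfeb over Tfe3 was 0.695 and 0.744 in CKO and 0.873 and 1.19 in WT. Tfe3 was thus the most abundant of the 3 per kb in 3 of the libraries and Tfeb in WT replicate 2, while Mitf was the least abundant of the 35 genes per kb in each library. Tfec, a family member known from macrophages, had 15 and 23.6 scaled reads in CKO and 36.3 and 197.7 in WT, a log2 change of -2.12 (SE 0.90, limma adjusted p 0.459).

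**Figure D4:**
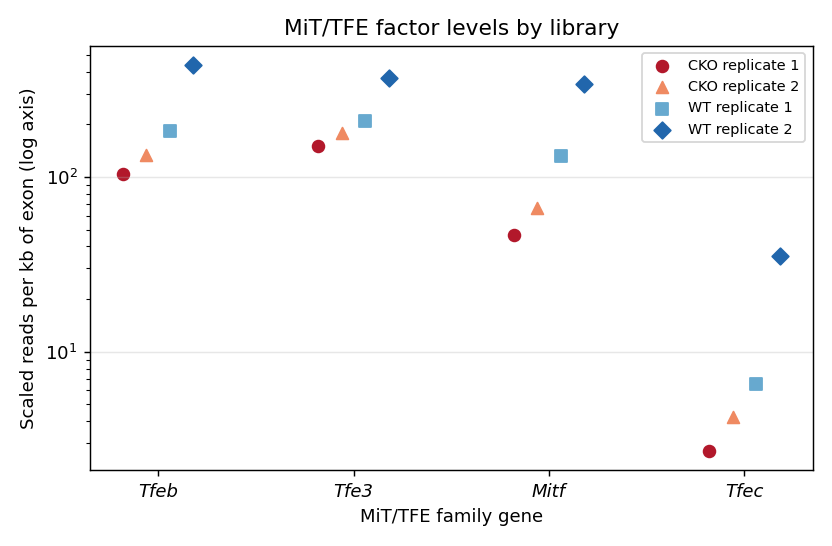
Scaled reads per kb of exon for the 4 genes of the MiT/TFE family in each library, on a log axis. WT replicate 2 is highest for every gene; Mitf runs from 46.4 in CKO replicate 1 to 342 in WT replicate 2, and Tfec stays at 35.3 or below.

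Members with and without the promoter motif had overlapping ranges of change. The 10 genes with TCACGTG in the window had log2 changes from -2.28 (Gla) to -0.11 (Gaa), with a median of -1.07, and groups that did not overlap for 9 of 10. The 20 genes with a window but no match had changes from -2.34 (Gusb) to 0.20 (Smpd1), with a median of -1.21, and groups that did not overlap for 19 of 20. Over all genes tested, both CKO libraries lay below both WT libraries for 26.8%. The difference between the sets with and without a match was not tested. The motif thus stands before Gla and before Gaa, which lie at either end of the 10.

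**Figure D5:**
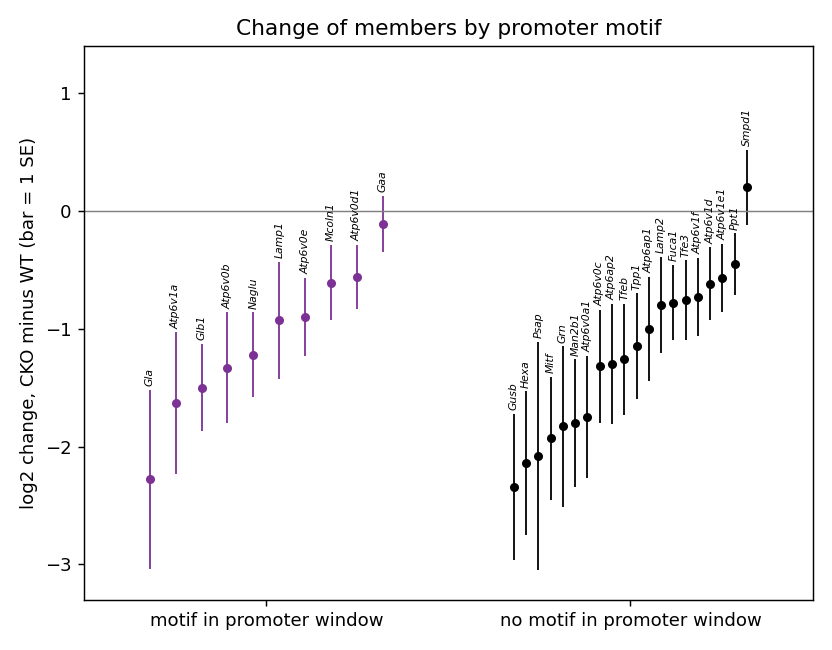
Log2 change, CKO minus WT, with 1 SE, of the 30 genes that have a RefSeq promoter window, split by whether the window holds the motif. The 10 genes with it lie between -2.28 and -0.11 and the 20 without it between -2.34 and 0.20.

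Other lysosomal genes were read in the same fit, from lists made by function. Of all genes tested, 48.9% were lower in sign and 7.26% were so at an unadjusted p under 0.05 in limma. Of 25 further hydrolases and cofactors, 24 were lower in sign, 12 of them at an unadjusted p under 0.05 and 0 at the adjusted threshold, with a median change of -0.90. Galc, which breaks down galactosylceramide, Lipa, the lysosomal acid lipase, Gm2a, an activator of hexosaminidase, and Dnase2a, an acid nuclease, were at -1.74, -2.75, -1.13 and -2.15. The cathepsin list holds 12 genes for lysosomal proteases, among them Lgmn for legumain, which is not a cathepsin. Of these 12, 10 were lower in sign and 8 were so at an unadjusted p under 0.05, with a median of -1.99. Ctsf and Ctso were higher in sign, at 0.12 and 0.28. Ctsk and Lgmn had log2 changes of -3.33 and -2.59, and Ctsz and Ctsh of -2.15 and -1.84. Of 22 further membrane proteins and transporters tested, 19 were lower in sign, 10 at an unadjusted p under 0.05, with a median of -0.98. The calcium-permeable channel gene Tpcn2, the nucleoside transporter gene Slc29a3, and Cd68 and Laptm5, which are abundant in macrophages, were at -2.35, -1.52, -3.22 and -2.71.

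Genes that deliver enzymes to the lysosome or control TFEB had medians nearer to 0 than the further hydrolases, cathepsins and membrane proteins. Medians of similar size were seen for the V1 genes (-0.67) and membrane genes (-0.80) among the 35 and the further V-ATPase genes (-0.43). Autophagy genes had a median close to 0. Differences between lists were not tested. Of 9 genes for mannose 6-phosphate tagging and sorting, 8 were lower in sign, with a median of -0.79. Both CKO libraries lay below both WT libraries for 5 of these 9, against 26.8% of all genes tested. At an unadjusted p under 0.05 in limma, 1 was lower, a count near the 7.26% of all genes tested. The gene was Gnptab, which makes the tag (-0.81), and the receptor genes Igf2r and M6pr and the uncovering enzyme gene Nagpa were at -0.98, -0.86 and -0.86. The list for control of TFEB holds 19 genes. Most belong to mTORC1, the Rag GTPases, Ragulator and folliculin, which keep TFEB in the cytosol when nutrients are present, but it also holds Tfec, the calcineurin gene Ppp3cb, whose product sends TFEB to the nucleus, and Zkscan3, a repressor of autophagy genes. Of the 19, 15 were lower in sign, with a median of -0.45. Both CKO libraries lay below both WT libraries for 15 of the 19 and above them for 3, against 26.8% and 23.9% of all genes tested. At an unadjusted p under 0.05 in limma, 1 was lower and 1 higher, counts near the 7.26% and 3.35% of all genes tested. The lower one was Rragd (-1.45), with Fnip2 at -1.75 and an unadjusted p of 0.0517. The higher one was Zkscan3, with 2375 and 1955 scaled reads in CKO and 1416 and 1275 in WT, a log2 change of 0.68 (SE 0.24, limma adjusted p 0.459). Of 18 autophagy genes, 11 were lower and 7 higher in sign, with a median of -0.037. In limma, 0 in either direction had an unadjusted p under 0.05. Both CKO libraries lay below both WT libraries for 7 of these 18 and above them for 2. Vps18, Uvrag, Gabarap and Atg5 were at -0.99, -0.50, -0.51 and -0.42. Without WT replicate 2, the medians of the hydrolase, cathepsin, membrane protein, sorting, TFEB control and autophagy lists were -0.52, -1.23, -0.54, -0.29, -0.24 and -0.020.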

How the data were processed

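The members and lists were chosen with earlier results of these data known. The aligner STAR 2.7.5c, the build GRCm38.p6 and FastQC are named per the submitters' processing notes. The sources used here do not give the counting tool, its annotation or its use of strand. The authors deposited log2 values, named as normalised counts. Taken off the log2 scale and less 1, 100.0% of values in each library were whole within 0.01, and totals differed, so the values are log2(reads + 1) without scaling. Reads were recovered by rounding and divided by size factors (the median ratio to the geometric mean over 19847 genes; 0.9982 and 1.1040 for CKO, 0.9630 and 0.9511 for WT). Genes whose deposited log2 values averaged 3 or more were fitted on log2(scaled reads + 1) in limma 3.58.1 (R 4.3.3; eBayes with a trend, two-sided, Benjamini-Hochberg over 16871 genes), which understates changes of low genes. Since the deposited unit is log2, no count model was run. GENCODE M21 matched 99.3% of identifiers and gave exon lengths and overlaps; promoters are from RefSeq (GRCm38.p6). Intervals are exact binomial at 95%. Genes described in full are the 2 of smallest p and the least changed in each role group and all MiT/TFE factors; of other lists, up to 4 of smallest p; others are said to be chosen later. Replicate numbers follow record order. The labels name no batch. Every column of values was used.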

Additional observations from a re-analysis of the deposited data

How the results depend on the processing

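In the 10 settings that kept all 4 libraries (no filter or a stricter one at 6, eBayes without the trend or made robust, values left unscaled, scaling by total reads, quantile normalisation, a pseudocount of 10, library weights and voom weights), 0 genes and 0 of the 35 members passed the adjusted threshold in limma, with a smallest adjusted p over members of 0.431 to 0.58. The members at an unadjusted p under 0.05, 16 in the reported fit, were 10 with unscaled values, and both CKO libraries lay below both WT libraries for 33 members with scaling by total reads or quantiles and 30 unscaled. The median change of all genes was 0.15 unscaled and 0.12 with no filter. Leaving out each library in turn gave 0 to 1775 genes past the threshold (0 to 837 higher and 0 to 938 lower), 0 to 18 members past it, 0 to 32 members at an unadjusted p under 0.05, and a member median from -1.72 to -0.61; calls arose only without WT replicate 1. Gaa turned to 0.022 unscaled and 0.008 with quantile normalisation, and ran from -0.24 to 0.013 (without CKO replicate 2) with a library left out; Smpd1 ran from -0.16 (without WT replicate 2) to 0.57; the cause was not tested. No paired analysis was possible because the labels give no number shared between the groups. The lowest count of a member in a library was 267 reads (Gla, CKO replicate 1).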
